A study of Homo sapiens with 6 samples.

Results

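Long intergenic noncoding RNAs that carry a LINC symbol and a number were followed in 786-O, a line derived from a human clear cell kidney tumour, with and without overexpression of OGT, which modifies nuclear and cytosolic proteins with single O-linked N-acetylglucosamine sugars. Members were chosen by name and measured level: rows of the deposited table named LINC and a number, with a mean over the 6 libraries of at least 0.5 TPM (an abundance scaled by transcript length and by library total). That mean pools both groups, and the difference between groups was not used. This gave 235 rows with 231 distinct symbols, of 2252 rows so named and 62703 rows in all, and LINC00520 was among them. A further 1521 LINC rows were listed at 0 in every library. The control group was 3 libraries of 786-O cells that the labels give as wild type (titles NC), and the other group was 3 libraries of OGT overexpressed 786-O cells. All cells were kept in RPMI-1640 with fetal bovine serum, and the labels used here do not name the vector, promoter or clonality of the overexpressing cells. The labels do not say whether replicates were grown separately, so a p-value covers just the spread among these libraries, and that spread may be technical.

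Long intergenic noncoding RNAs are transcribed from their own promoters between protein-coding genes, and most are spliced and polyadenylated like messenger RNAs. They are known for low levels and strong cell-type specificity. Some act near their own locus and others as scaffolds or decoys in the nucleus or cytoplasm, while for most no function has been settled. A LINC symbol is a catalogue number given to such genes when no function is known, so members share a naming rule and not a pathway.

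OGT itself went from 23.1 ± 0.525 TPM to 325.5 ± 47.32 TPM with overexpression (SD, n = 3 in each group here and below), so the labels held at the targeted gene. Totals of the libraries ran from 993935.5 to 996951.6 TPM. Read totals cannot be had from this unit, so depth is unknown and counting intervals are left out. Of the renal carcinoma markers, PAX8 was between 124.78 and 209 TPM and VIM between 1758.85 and 2780.57 TPM, whereas CA9 was at most 0.85 TPM. NNMT was 433.05, 404.72 and 403.55 TPM in control and lower, at 270.07, 254.54 and 286.06 TPM, with OGT overexpression. CDH6 stood apart in control replicate 2, at 28.69 TPM against 2.69 to 7.6 TPM in the other libraries. Markers of other cells summed to 66.82 to 72.82 TPM in control and 101.55 to 119.69 TPM in overexpressing libraries for the immune list, mostly CD68. PTPRC was 0 in the 3 overexpressing libraries and 12.23, 0.06 and 0.07 TPM in the controls. The endothelial list (3 genes) summed to 0.76 to 4.77 and 0.16 to 2.68 TPM, and the fibroblast list (3 genes) to 0.14 to 2.4 and 0.5 to 2.33 TPM. Their part in the results below was not tested.

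Of the 235 members 227 (96.6%) had an entry in GENCODE release 29 (GRCh38), where 188 were typed as lincRNA, 16 as processed transcript, 11 as antisense, 1 (LINC02693) as protein-coding and 11 as another type. They lay on 23 chromosomes, with the most, 28, on chromosome 1. Their reference transcripts had a median length of 1521 bases and a median of 3 exons, and 17 had 1 exon. Protein-coding genes tested here had a median transcript length of 3324 bases. Median GC content was 47.9% for the members and 49.6% for coding genes. The median distance to the nearest protein-coding gene was 26798 bases, 38 members lay within 5000 bases of one without overlap, and 20 overlapped one. For these overlapping members the strand setting of the counting matters and is unknown, so their values are uncertain. A near-identical copy was found for 24 members (3 of them also among the 20), a stretch of at least 95% identity over at least 50% of the reference transcript in another gene, and these values are uncertain as well.

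RefSeq promoters (250 bases before to 50 after the start, GRCh38.p14) matched 155 of the 231 symbols by name. Shown are those of the members with the largest rises and falls that had an entry, so that the sequence around their start can be read beside their values: LINC01322 (chr3:165206698-165206997, plus strand) and LINC01508 (chr9:90433440-90433739, minus strand), which were higher with OGT overexpression, and LINC00702 (chr10:4243863-4244162, minus strand) and LINC03011 (chr7:66493382-66493681, plus strand), which were lower. Capitals mark the core of the hypoxia response element, the letters ACGTG or GCGTG on either strand. The element was searched because the series concerns HIF-2α, which binds it.
LINC01322: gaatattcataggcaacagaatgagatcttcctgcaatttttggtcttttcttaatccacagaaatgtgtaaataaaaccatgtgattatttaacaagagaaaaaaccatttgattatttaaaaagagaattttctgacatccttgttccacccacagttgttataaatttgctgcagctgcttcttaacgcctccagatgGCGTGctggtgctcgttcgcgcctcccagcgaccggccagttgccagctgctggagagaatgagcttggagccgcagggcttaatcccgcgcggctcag
LINC01508: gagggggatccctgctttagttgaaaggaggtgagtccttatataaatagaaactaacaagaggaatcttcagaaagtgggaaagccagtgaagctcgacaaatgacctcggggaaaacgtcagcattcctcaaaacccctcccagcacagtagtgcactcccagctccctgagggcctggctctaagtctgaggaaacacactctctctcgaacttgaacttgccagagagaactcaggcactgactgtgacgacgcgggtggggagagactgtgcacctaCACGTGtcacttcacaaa
LINC00702: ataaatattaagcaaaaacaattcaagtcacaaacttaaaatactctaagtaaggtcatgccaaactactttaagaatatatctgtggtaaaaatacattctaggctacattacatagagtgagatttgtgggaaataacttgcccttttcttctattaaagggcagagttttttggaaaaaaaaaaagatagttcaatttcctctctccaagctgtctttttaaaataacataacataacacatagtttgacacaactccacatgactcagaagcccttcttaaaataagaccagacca
LINC03011: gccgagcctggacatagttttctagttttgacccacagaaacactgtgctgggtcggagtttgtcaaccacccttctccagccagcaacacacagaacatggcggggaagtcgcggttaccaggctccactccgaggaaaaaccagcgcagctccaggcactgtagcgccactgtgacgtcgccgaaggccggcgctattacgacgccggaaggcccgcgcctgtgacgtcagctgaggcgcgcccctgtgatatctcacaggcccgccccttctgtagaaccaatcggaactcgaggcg

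The motif was found once in the LINC01322 window, and 2 times in LINC01508, where CACGTG reads the same on both strands and so counts on each. It was not found in the windows of LINC00702 and LINC03011. Of the members' promoters 72 of 155 (46.5%) held at least 1 match, against 48.4% of all 27305 promoters of that length. Among called members with an entry, 5 of 9 that rose and 5 of 11 that fell held a match. A match is a description of letters and not of a bound site. The members' windows held a median of 8 CpG dinucleotides against 14 for all promoters. In the windows shown, LINC00702 had 0 CpG in 31.3% GC and LINC03011 had 25 in 60.7% GC.

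All 235 members were tested together with every gene whose mean was at least 0.5 TPM, 14648 in all, with limma on log2(TPM + 1). With OGT overexpression 27 members (11.5%) passed a limma adjusted p of 0.05, against 40.4% of all tested genes. Of these 13 rose and 14 fell (5.53% and 5.96% of the members), against 32.4% and 7.95% of all tested genes, and 208 were not called. The members' share of rises was thus below the background, and their share of falls was near it. Their median log2 change was -0.06, against 0.28 for all tested genes. In bulk RNA, fewer cells carrying a transcript and less of it per cell cannot be told apart. A change is given as OGT overexpression minus control of log2(TPM + 1), a scale on which the change of low genes is understated. The balance depended on scaling: quantile normalization left 4 members higher and 24 lower, and centring of the libraries on their medians 4 higher and 32 lower. For all genes those scalings gave 17% higher and 13.8% lower, and 11.5% higher and 19.6% lower. As shares of the 235 members, rises and falls both stayed below those of all genes. The median of all genes moved to 0.02 and -0.12, and that of the members to -0.35 and -0.45, and centring keeps the gap between these medians by construction. Single libraries moved the counts as well, to 8 higher and 7 lower without OGT replicate 1, to 7 lower without OGT replicate 2 or 3, and to 9 lower without control replicate 3.

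**Figure D1:**
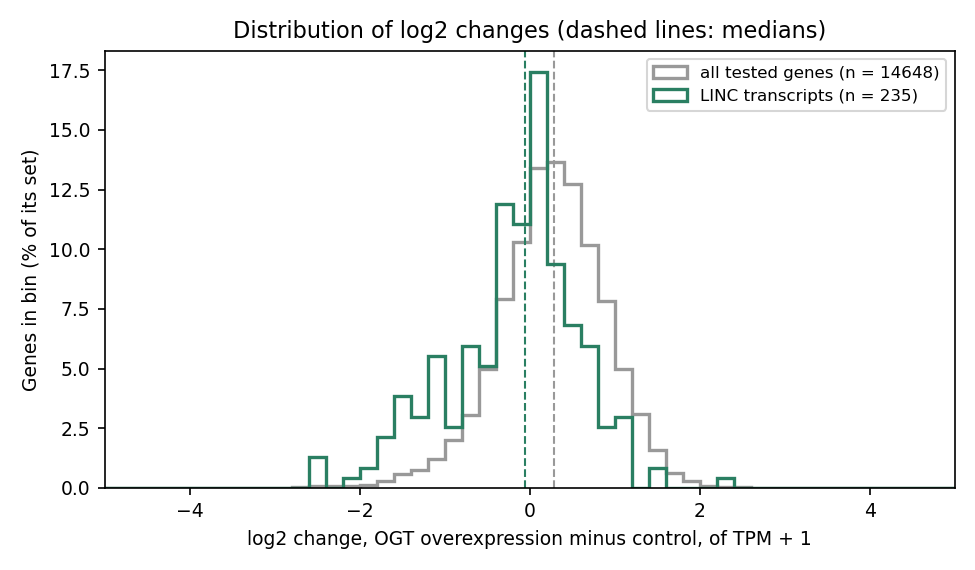
Distribution of log2 changes (x axis, OGT overexpression minus control, of TPM + 1) as a percentage of each set (y axis) for 235 LINC transcripts and 14648 tested genes, with medians as dashed lines. The LINC median lies at -0.06 and that of all tested genes at 0.28.

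The lower share of rises was seen on both sides of a split at 5 TPM, which does not match level. The median level was 8.25 TPM for members and 22.8 TPM for all genes at 5 TPM or more. Below 5 TPM it was 1.44 and 1.77 TPM. Among the 62 members with a mean of at least 5 TPM, 10 rose and 7 fell. These were 16.1% and 11.3%, against 41.7% and 12.5% of all genes at 5 TPM or more. Among the 173 members below 5 TPM, 3 rose and 7 fell, 1.73% and 4.05%, against 20.6% and 2.15% of all genes below 5 TPM. The members were also less precise: the median standard error of the log2 change was 0.344 for members and 0.187 for all genes, and 0.216 and 0.114 at 5 TPM or more. Across all genes the log2 change followed GC content and transcript length (Spearman -0.421 and 0.362, over 14173 genes that share the same 6 libraries). Across the 227 members with a reference transcript these correlations were -0.015 and 0.059. After removal of the GC and length trend from the libraries, 9 of these 227 members were higher and 15 lower. For all genes with a reference transcript the shares were 13.8% and 8.93%, both above those of the members.

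Other noncoding classes are given beside the members. Of 381 antisense RNAs named for a gene 13 rose and 27 fell (median log2 change 0.02), and of 167 divergent transcripts 5 rose and 13 fell (median -0.10). Of 22 miRNA host genes 1 rose and 5 fell, with MIR155HG from 5.46 ± 0.31 to 2.27 ± 0.3175 TPM. Of 25 snoRNA host genes, whose introns carry small nucleolar RNAs, 5 rose and 5 fell, and SNHG8 fell from 180.3 ± 19.37 to 77.07 ± 10.92 TPM. Of 27 tested long noncoding RNAs with names of their own, 5 rose and 2 fell, with NORAD, a sponge of Pumilio proteins, from 4.407 ± 0.6439 to 10.48 ± 0.9603 TPM (not called with the GC and length trend removed, limma adjusted p = 0.0586). Of 12080 protein-coding genes 38% rose and 8.48% fell. Differences between these classes were not tested. Median centring lowers the changes of all genes by the same amount, so every class shifts down by construction. After it all tested genes came to 11.5% higher and 19.6% lower. Of the antisense RNAs 2 were then higher and 56 lower, and of the divergent transcripts 1 and 36. The miRNA hosts had 0 higher and 7 lower, the snoRNA hosts 1 and 9, and the RNAs with own names 2 and 4. With the GC and length trend removed, all genes came to 13.8% higher and 8.93% lower. Of 379 antisense RNAs 8 were then higher and 26 lower, and of 165 divergent transcripts 1 and 12. The miRNA hosts had 0 and 5, the snoRNA hosts 2 and 6, and the RNAs with own names 1 and 3.

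**Figure D2:**
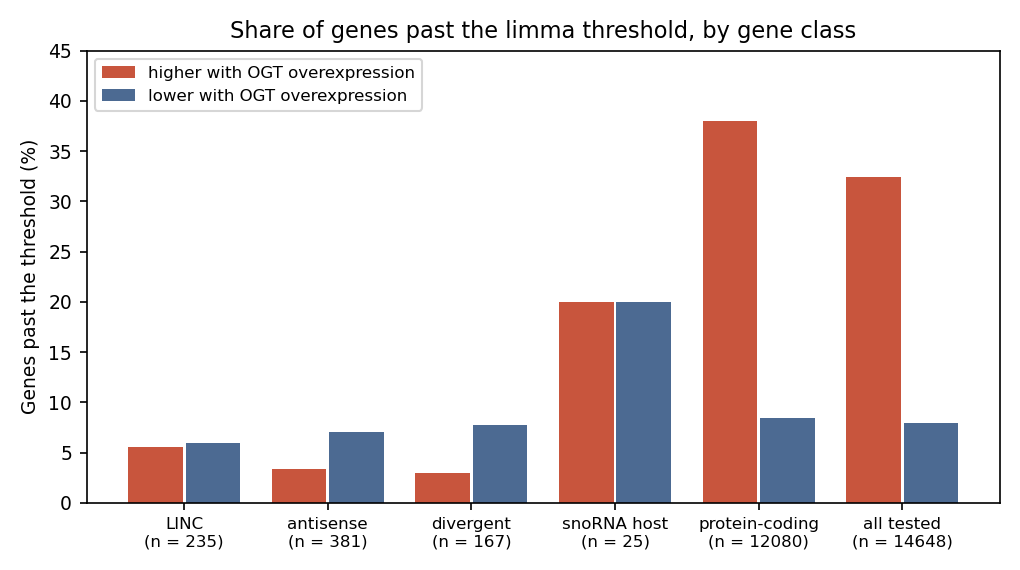
Percentage of tested genes past the limma threshold (y axis), higher or lower with OGT overexpression, in 6 gene classes (x axis, number tested in brackets). LINC transcripts were higher in 5.53% and lower in 5.96%, and protein-coding genes higher in 38% and lower in 8.48%.

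Transcripts that encode proteins retaining or degrading nuclear noncoding RNA were read from fixed lists. Of 21 genes of the nuclear exosome and its adaptors, the machinery that trims and destroys nuclear RNA, 10 rose and 3 fell (47.6% and 14.3%, near the 41.7% and 12.5% of all tested genes at 5 TPM or more). EXOSC10, its nuclear exonuclease, rose from 26.77 ± 2.926 to 45.73 ± 2.287 TPM, and the core subunit gene EXOSC5 fell from 65.38 ± 1.006 to 40.3 ± 3.979 TPM. After median centring 3 were higher and 5 lower, and the rise of EXOSC10 missed the threshold (limma adjusted p = 0.0617). With the GC and length trend removed 3 were higher and 2 lower, and the rise of EXOSC10 was still called (limma adjusted p = 0.0271). Of 15 tested rows for paraspeckle and nuclear RNA-binding proteins 12 rose (80%) and 3 were not called, against 41.7% higher among all tested genes at 5 TPM or more. After median centring 4 of them were higher and 2 lower, and with the GC and length trend removed 4 were higher and 1 lower. HNRNPU, a nuclear scaffold protein, rose from 96.34 ± 1.655 to 202.6 ± 13.86 TPM, and was called higher under each scaling, as was HNRNPK. NONO rose from 324.5 ± 5.275 to 450.4 ± 26.42 TPM. It was not called after median centring (limma adjusted p = 0.427) or with the GC and length trend removed (limma adjusted p = 0.0712).

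LINC00520 had the largest rise among the called members. It lies on chromosome 14, 55781132 to 55796731 on the minus strand, has been described in endothelial cells as a transcript that enhances nitric oxide synthase expression, and has been reported in several carcinomas. Its level was 4.04, 3.05 and 1.54 TPM in the control libraries and 25.86, 18.68 and 9.1 TPM in the overexpressing libraries. The groups did not overlap, and within each group the highest library was more than 2 times the lowest. The log2 change was 2.23 (SE 0.4144, limma adjusted p = 0.00662), higher in 3 of 3 libraries. It held at 1.89 after quantile normalization, 1.84 after median centring and 1.90 with the GC and length trend removed, and ran from 1.92 to 2.62 with single libraries left out. The nearest coding gene, KTN1, which encodes the endoplasmic reticulum protein kinectin and lies 79606 bases away, rose from 2.607 ± 0.5811 to 7.31 ± 1.22 TPM (not called with the GC and length trend removed, limma adjusted p = 0.0611).

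LINC02582 (chromosome 18, 73324941 to 73349878, plus strand) was 1.08, 1.36 and 1.09 TPM in control and 4.66, 4.38 and 5.35 TPM in overexpressing libraries. Its groups were far apart relative to their spread, with by 1.41 on the log2 scale (SE 0.1651, limma adjusted p = 0.001027). LINC03033 (chromosome 14, 61570540 to 61658696, plus strand) was 4.63, 4.21 and 5.03 TPM in control and 9.56, 9.8 and 8.55 TPM in overexpressing libraries. These values are tight in both groups and about double, a log2 change of 0.87 (limma adjusted p = 0.002307), but it overlaps a coding gene model and has a near-identical copy, so its level is uncertain. LINC00520, LINC02582 and LINC03033 were the 3 rises that stayed called under quantile normalization, median centring, the GC and length correction and every fit with 1 library left out.

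LINC02376 and LINC00973 were the most abundant members that rose and stayed called in all 6 fits with 1 library left out. LINC02376 was 25.62, 29.89 and 23.62 TPM in control and 39.64, 44.19 and 45.07 TPM in overexpressing libraries (log2 change 0.69, limma adjusted p = 0.002715). It was not called after median centring (0.29, limma adjusted p = 0.1214). LINC00973, which has been reported in clear cell renal carcinoma as a regulator of the immune checkpoint gene SIGLEC15, was 27.3, 25.6 and 23.03 TPM in control and 36.93, 36.1 and 40.83 TPM in overexpressing libraries. Its groups did not overlap, and the log2 change was 0.57 (limma adjusted p = 0.003219). It fell short of the threshold after quantile normalization (0.29, limma adjusted p = 0.06442) and median centring (0.17, limma adjusted p = 0.21). Its neighbour at 79369 bases, the membrane receptor gene DCBLD2, rose from 22.78 ± 2.847 to 53.61 ± 1.744 TPM.

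LINC01322, whose promoter is printed above, was 1.89, 3.46 and 3.97 TPM in control and 7.95, 7.52 and 8.97 TPM in overexpressing libraries (log2 change 1.19, limma adjusted p = 0.007017). LINC01508 was 3.16, 4.28 and 2.1 TPM in control and 7.61, 9.07 and 7.32 TPM in overexpressing libraries (log2 change 1.14, limma adjusted p = 0.007503). In both, every overexpressing library was above every control. After quantile normalization their limma adjusted p was 0.05263 and 0.05399, and after median centring 0.0495 and 0.05068. LINC01128, near the end of chromosome 1, was 5.89, 6.31 and 5.7 TPM in control and 9.38, 8.52 and 9.6 TPM in overexpressing libraries, a log2 change of 0.54 (limma adjusted p = 0.009862). That change was 0.17 after quantile normalization, 0.15 after median centring and 0.02 with the GC and length trend removed, with limma adjusted p = 0.3621, 0.4172 and 0.917.

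The other 5 rises each lost the call in at least 3 of the 6 fits with 5 libraries. LINC01705 (1.08 ± 0.3477 to 3.037 ± 0.9474 TPM, log2 change 0.95) stayed called without control replicate 1 or 2 or OGT replicate 2, and reached a limma adjusted p = 0.0626 in the others. LINC02669 (2.373 ± 0.9432 to 5.17 ± 0.4223 TPM, 0.91) stayed called without control replicate 1 or 2, and LINC01138 (3.783 ± 1.228 to 6.727 ± 0.5005 TPM, 0.73) without control replicate 1 or 3, with limma adjusted p up to 0.0751 and 0.12 in the others. LINC01138 has been reported to stabilise PRMT5 in liver cancer and overlaps the gene PPIAL4G, so its level is uncertain. LINC00839 (9.783 ± 2.123 to 14.28 ± 0.3404 TPM, 0.52) stayed called without control replicate 3, and LINC00958 (34.09 ± 6.067 to 47.31 ± 3.221 TPM, 0.47) without control replicate 1, with limma adjusted p up to 0.0957 and 0.0967. None of the 5 was called after quantile normalization or median centring. LINC00958 is known from bladder cancer, and its control libraries at 39.98, 27.86 and 34.42 TPM lay below the overexpressing ones at 43.7, 49.89 and 48.34 TPM.

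**Figure D3:**
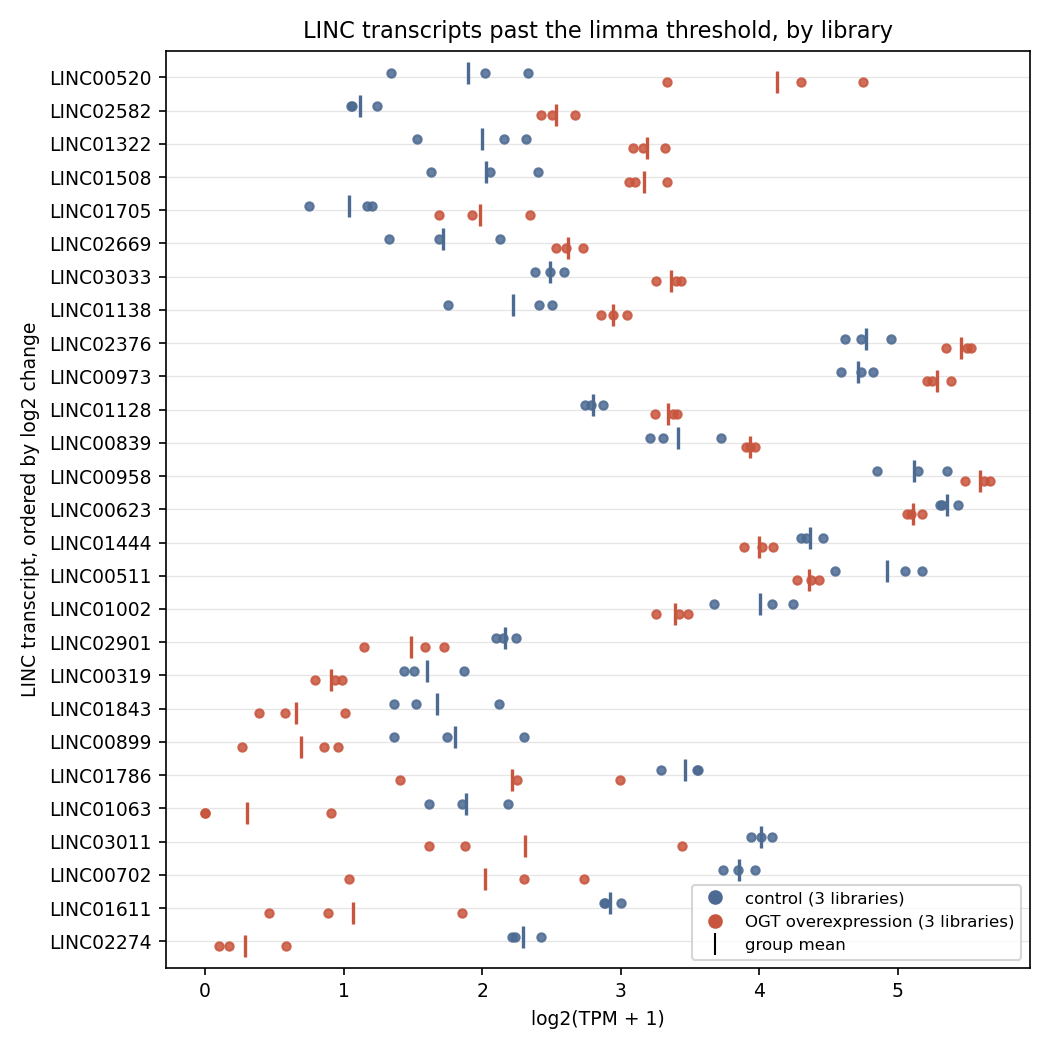
Levels of the 27 called LINC transcripts as log2(TPM + 1) (x axis) in each library, ordered by log2 change (y axis), with 3 control and 3 OGT overexpression points and a bar at each group mean. The control and overexpression points do not overlap in any of the 27, and LINC00520 at the top and LINC02274 at the bottom have the largest differences between group means.

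LINC02274 had the largest fall among the called members. It lies on chromosome 14, 73822559 to 73830135 on the minus strand, and was 3.64, 3.71 and 4.37 TPM in control and 0.13, 0.07 and 0.5 TPM in overexpressing libraries. The control libraries were close together, and every overexpressing library was at or below 0.5 TPM. The log2 change was -2.01 (SE 0.2112, limma adjusted p = 7.112e-04). It ran from -2.15 to -1.91 with single libraries left out. The nearest coding gene, PTGR2, at 21709 bases, was 1.12 ± 0.7881 and 1.857 ± 0.2641 TPM and was not called (limma adjusted p = 0.2749).

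LINC01611 (chromosome 6, 84421028 to 84556152, minus strand) was 7.02, 6.39 and 6.37 TPM in control and 2.62, 0.38 and 0.85 TPM in overexpressing libraries (log2 change -1.85, limma adjusted p = 0.006812). Its spread lay in the overexpressing group. LINC00702 (chromosome 10, 4201141 to 4243912, minus strand) was 13.42, 12.36 and 14.64 TPM in control and 1.05, 5.67 and 3.92 TPM in overexpressing libraries, again with the wider spread in the overexpressing group. Its log2 change was -1.83 (limma adjusted p = 0.01483), from -2.19 to -1.33 with single libraries left out. LINC01063 (chromosome 3, 196631498 to 196632587, minus strand) was 3.55, 2.61 and 2.06 TPM in control, 0.88 TPM in 1 overexpressing library and listed at 0 in the other two. The log2 change was -1.58 (limma adjusted p = 0.009045). LINC01063 was the 1 called member among the 61 with a listed 0. Such a 0 can be a failed estimate, so the size of its fall is uncertain. These 4 falls stayed called with the GC and length trend removed and in every fit with 1 library left out. LINC02274 and LINC01063 reached a mean of 0.5 TPM in the control group alone, so they became members through the group where they are high, and that they differ is partly set by the choice of members.

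The other 10 falls each lost the call in at least 4 of the 6 fits with 5 libraries. LINC03011 was 16.04, 14.37 and 15.18 TPM in control and 2.68, 9.87 and 2.06 TPM in overexpressing libraries (log2 change -1.70, limma adjusted p = 0.02705). Overexpressing replicate 2 lay between the controls and its own group, and the call held only without it (change -2.27, limma adjusted p = 0.00169). In the other fits its limma adjusted p was up to 0.0907. LINC01786 was 8.77, 10.71 and 10.78 TPM in control and 6.98, 3.76 and 1.65 TPM in overexpressing libraries (-1.25, limma adjusted p = 0.04033), and stayed called only without OGT replicate 1 (others up to 0.104). It lies 16 bases from SCNN1D, a sodium channel subunit gene that fell from 5.903 ± 2.442 to 1.613 ± 0.6688 TPM, and without strand information reads at that boundary cannot be assigned.

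LINC00511, reported as growth-promoting in many carcinomas, was 22.35, 32.18 and 35.18 TPM in control and 20.55, 18.35 and 19.69 TPM in overexpressing libraries. The lowest control library lay close to the highest overexpressing one, and the log2 change was -0.57 (limma adjusted p = 0.03502). Only without control replicate 1 did it stay called (limma adjusted p = 0.00318, others up to 0.106), while the GC and length correction gave -1.02 (limma adjusted p = 0.01005). LINC00623, another abundant member that fell, was 38.54, 42.23 and 38.98 TPM in control and 35.11, 33.14 and 32.53 TPM in overexpressing libraries. Its log2 change was -0.24 (limma adjusted p = 0.02977), which came to -0.01 with the GC and length trend removed. It stayed called only without control replicate 1 or OGT replicate 1 (others up to 0.0923). LINC00623 has a near-identical copy in LINC01145, so its level is uncertain.

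LINC00899 (2.62 ± 1.198 to 0.65 ± 0.3951 TPM, log2 change -1.11) stayed called only without control replicate 3, with limma adjusted p up to 0.0837 in the others. LINC01843 (2.27 ± 0.9566 to 0.6033 ± 0.3635 TPM, -1.01) stayed called only without control replicate 1 or OGT replicate 2 (up to 0.0892). LINC00319 (2.063 ± 0.5129 to 0.8767 ± 0.1305 TPM, -0.70) stayed called only without control replicate 1 (up to 0.0989). These 3 members were low in both groups. LINC02901 (3.483 ± 0.2248 to 1.84 ± 0.5575 TPM, -0.68) stayed called only without OGT replicate 2 (up to 0.0867), and LINC01002 (15.25 ± 3.168 to 9.497 ± 0.864 TPM, -0.61) only without control replicate 2 (up to 0.0872). LINC01444 (19.64 ± 1.215 to 15.05 ± 1.174 TPM, -0.36), named after its values were seen because it completed the 14, stayed called only without control replicate 1 or OGT replicate 1 (up to 0.0692). LINC00319, LINC01002 and LINC01444 have near-identical copies and are uncertain. With the GC and length trend removed 7 of the 14 falls stayed called. All 14 stayed called after quantile normalization and median centring, but both lower the changes of nearly all genes and so make a fall larger by construction.

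In all 27 called members the control and overexpressing libraries did not overlap, as in 58 members (24.7%) in all, against 53.3% of all tested genes. These were 27 with higher and 31 with lower values in the overexpressing group, against 42.1% and 11.3% of all tested genes. As shares of all members, the first was below that background and the second near it. Beyond the called ones, 31 members with separate groups were not called, 14 with higher and 17 with lower values in the overexpressing group. None of the 27 changed sign under any alternative fit that held it. Of the 27, 12 stayed called in all 6 fits with 1 library left out, 8 that rose and 4 that fell. The same share of all called genes was not computed. Fits with 5 libraries also called fewer genes in all: 3516 to 4339 higher and 868 to 1049 lower, against 4747 and 1165 with 6. A lost call thus does not by itself mark a member as less stable than other genes.

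The mean level chose the members, so the order of levels is a description. Of the 235, 9 had a mean of at least 20 TPM and 54 a mean below 1 TPM, with a median of 2.01 TPM. LINC01629 was highest, at 51.27 ± 10.47 TPM (control) and 66.02 ± 24.28 TPM (OGT overexpression), and its libraries overlapped (limma adjusted p = 0.4154). LINC02970 was 22.13 ± 0.9903 and 21.43 ± 3.02 TPM, a log2 change of -0.05 with a 95% interval from -0.33 to 0.23. LINC01605 was 22.08 ± 0.8608 and 18.5 ± 1.221 TPM on the row given here, and another member row carries the same symbol. It was not called (log2 change -0.24, limma adjusted p = 0.05577), nor with the GC and length trend removed (-0.11, limma adjusted p = 0.4843). It was called lower after quantile normalization (-0.55, limma adjusted p = 0.003827) and median centring (-0.64, limma adjusted p = 0.003882). Both of these scalings lower the changes of nearly all genes. LINC01116, whose nearest coding gene MTX2 lies 291564 bases away, was 15.85 ± 2.74 and 20.84 ± 3.862 TPM (log2 change 0.37, 95% interval from -0.03 to 0.77). Just inside the threshold of choice were LINC01291, LINC02154 and LINC00920, at means of 0.507, 0.512 and 0.537 TPM. Just outside were LINC02328, LINC02321 and LINC01776, at 0.498, 0.487 and 0.483 TPM.

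Many members were seen almost only in 1 library. In 39 of 235 members (16.6%) a single library held over 80% of the TPM summed over the 6 libraries, against 3.26% of all tested genes, a limit set after the data were seen. These shares were not matched by level: the median level was 2.01 TPM for members and 6.58 TPM for all tested genes. Of the 39, 35 had a mean below 5 TPM. In 18 of the 39 the other 5 libraries were listed at 0. LINC00603 was listed at 31.38 TPM in control replicate 3 and at 0 in all others, LINC02315 at 26.56 TPM in control replicate 2 alone, and LINC01707 at 23.25 TPM in OGT replicate 3 alone. These 3 were picked after their values were seen. An exact 0 in a table without counts can be a failed estimate, so such a pattern is a property of the listed values and not a measured absence.

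The top library of these 39 was a control in 30 and an overexpressing library in 9. By library the numbers were 14, 6 and 10 for control replicates 1, 2 and 3, and 1, 4 and 4 for the overexpressing replicates. Over all tested genes with this pattern a control was the top library in 320 and an overexpressing library in 157, with 173 in control replicate 1. None of the 39 was called by limma, 2 had an unadjusted p under 0.05, and their median log2 change was -1.11. A single high library fixes both the sign and the wide spread of such a member, so these values describe the pattern and test nothing. Listed zeros were common, with 61 members (26%) at 0 in at least 1 library against 7.74% of all tested genes, again not matched by level. A mean of at least 0.5 TPM was reached in the control group alone by 44 members and in the overexpressing group alone by 18, and 29 of the 44 were of the single-library kind. LINC02274 and LINC01063 were the 2 called members among these 62.

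**Figure D4:**
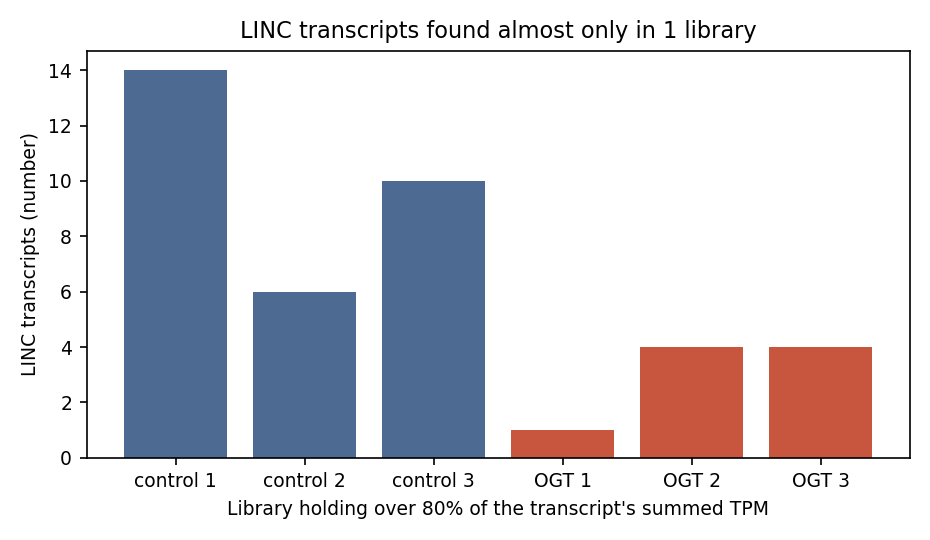
Number of LINC transcripts (y axis) for which the named library (x axis, blue for control and red for OGT overexpression) held over 80% of the TPM summed over 6 libraries. The 3 control libraries hold 14, 6 and 10 and the 3 overexpression libraries 1, 4 and 4.

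The 4 members with the largest changes that were not called were all of uneven libraries. LINC00334 was 6.52, 0.1 and 26.29 TPM in control and 0, 0 and 0.13 TPM in overexpressing libraries (log2 change -2.55, limma adjusted p = 0.1066). LINC00513 was 6.57, 1.67 and 47.28 TPM in control and 0.04, 2.1 and 0.55 TPM in overexpressing libraries (-2.54, limma adjusted p = 0.09842). LINC01589 was 2.91, 1.15 and 24.97 TPM in control and 0.41, 0 and 0 TPM in overexpressing libraries (-2.42, limma adjusted p = 0.06977). In these 3 the control libraries differed among themselves by more than 10 times, and without control replicate 2 each was called lower (limma adjusted p = 0.0062, 0.033 and 0.033). LINC01589 was also called without control replicate 3 (-1.37, limma adjusted p = 0.0358) and with a pseudocount of 0.1 TPM (-4.72, limma adjusted p = 0.0185).

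LINC01145 was listed on 2 rows. On one (ENSG00000272419) it was 40.76, 0 and 142.89 TPM in control and 0, 0 and 143.2 TPM in overexpressing libraries, and on the other (ENSG00000290867) 18.76, 15.37 and 17.68 TPM in control and 16.74, 19.78 and 16.25 TPM in overexpressing libraries. The first row switched between 0 and a high value within both groups, whereas the second was steady. The first row also has a near-identical copy in LINC02591. LINC01605, LINC02256 and LINC03006 were likewise listed on 2 member rows each, so the level of a symbol depends on the row.

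The nearest protein-coding gene was itself tested for 159 members, 144 distinct genes, of which 67 were called higher and 8 lower (46.5% and 5.56%), against 38% and 8.48% of all tested protein-coding genes. Across these 159 pairs the log2 changes of member and neighbour correlated with Spearman's rho 0.094 and Pearson's r 0.074, a description over genes measured in the same 6 libraries. Of 17 called members with a tested neighbour, 9 (52.9%) had a called neighbour, close to the 52.1% called among all 144 neighbours. In 7 of these pairs the sign was the same. Most called neighbours were higher (67 against 8), so a member that rose would mostly share its neighbour's sign whatever the pairing. Pairs with both higher were LINC00520 with KTN1, LINC00973 with DCBLD2, LINC00958 with TEAD1, a Hippo pathway transcription factor gene (0.8233 ± 0.3163 to 3.23 ± 0.7391 TPM, not called with the GC and length trend removed), LINC01705 with DUSP10, a MAP kinase phosphatase gene (18.22 ± 1.571 to 36.76 ± 1.688 TPM), and LINC02669 with KLF6. Pairs with both lower were LINC01786 with SCNN1D and LINC03011 with TPST1, a tyrosylprotein sulfotransferase gene (24.79 ± 6.3 to 15.34 ± 0.2984 TPM). LINC02669 and LINC00702 both lie nearest to KLF6, a Krüppel-like transcription factor gene, at 273158 and 415860 bases. KLF6 rose from 15.05 ± 0.805 to 35.09 ± 2.406 TPM, and of its neighbours LINC02669 rose and LINC00702 fell. LINC00511 fell while SLC39A11, a zinc transporter gene 5477 bases away, rose from 9.97 ± 2.049 to 15.81 ± 0.2285 TPM. The rise of SLC39A11 was not called after quantile normalization (limma adjusted p = 0.195), median centring (0.32) or removal of the GC and length trend (0.181).

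**Figure D5:**
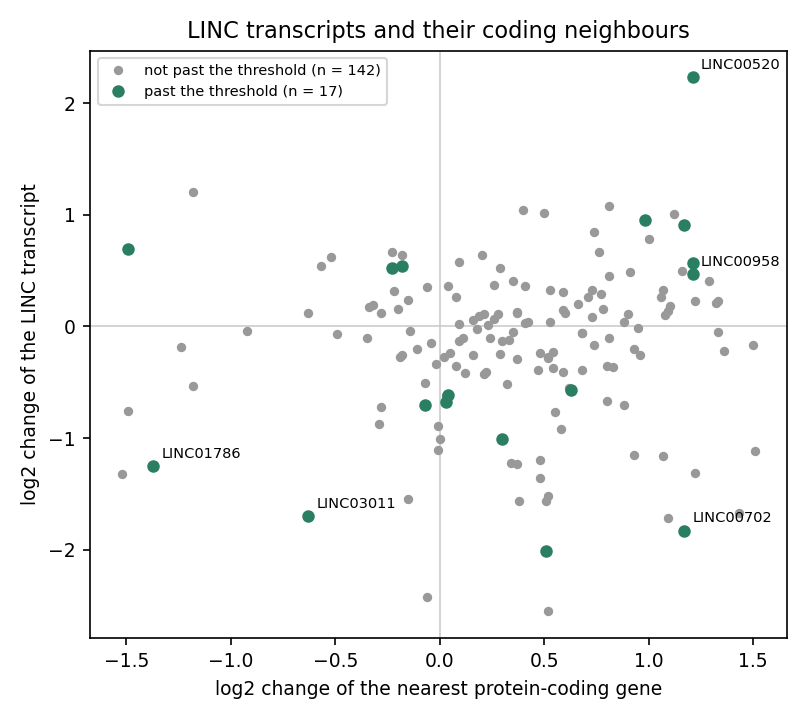
Log2 change of each LINC transcript (y axis) against that of its nearest protein-coding gene (x axis), for 159 pairs with a tested neighbour, 17 of them with a called LINC transcript (green). The points form no clear line (Spearman's rho 0.094), with LINC00520 at the upper right and LINC00702 at the lower right.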

How the data were processed

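Libraries of 786-O RNA (TruSeq kit, per the labels' protocols) numbered 6, 3 per group. The deposited table holds the authors' TPM for 62703 human Ensembl identifiers. How reads were aligned and counted is not given in the sources used here. GRCm38 and mm10, both mouse builds, stand in the submitters' processing notes, while every identifier is human. Groups and replicates came from the sample titles.

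All 14648 genes that reached the members' threshold, a mean of 0.5 TPM, were tested with limma 3.58.1 (R 4.3.3) on log2(TPM + 1) (eBayes with trend and robust, two-sided, 1 contrast), adjusted by Benjamini-Hochberg over all tested genes at 0.05. Positions, transcript length, GC content and neighbours came from GENCODE release 29 by identifier, and copies from blastn 2.17.0. The test was also run on simulated data with independent normal noise and few changed genes. Those data lacked the GC and length trend and the single-library pattern seen here, so that run cannot speak to them.

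Members and lists were chosen with earlier results of these data known. Named genes were LINC00520, the 10 members of highest mean, the 12 largest called rises and falls, the 4 largest uncalled changes, nearest coding genes and up to 3 members of each comparison list. Alternatives were another pseudocount, other filters, scalings, a GC and length trend (natural splines, 4 degrees of freedom), single libraries left out and replicate blocks. A fit on genes above 0 in all libraries was added after the data were seen. Same-numbered libraries were not treated as pairs. One marker of the immune list is not reported here.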

Additional observations from a re-analysis of the deposited data

How the results depend on the processing

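Counts of called LINC transcripts, 13 higher and 14 lower, moved most with scaling. Quantile normalization gave 4 higher and 24 lower, and 2485 and 2016 over all genes. Median centring gave 4 higher and 32 lower, and 1679 and 2875 over all genes. With the GC and length trend removed 1961 genes were higher in all. With no filter on low values 10 members were higher and 6 lower, and 4102 and 954 of the 25005 genes then tested. With 1 library left out, members numbered 8 to 14 higher and 7 to 12 lower, and all genes 3516 to 4339 higher and 868 to 1049 lower. Without OGT replicate 1 there were 8 higher and 7 lower. Members lower were 9 without control replicate 3 and 7 without OGT replicate 2 or 3. A fit limited to genes listed above 0 in all 6 libraries, chosen after the data were seen, gave 16 higher and 15 lower of 174 members. For all 13514 genes in that fit the counts were 5042 higher and 1209 lower.

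The replicate number as a block gave 8 higher and 8 lower members, and 3873 and 954 over all genes. With the GC and length trend removed as well there were 5 higher and 8 lower members, and 1183 and 825 over all genes. Deviations of same-numbered libraries correlated at -0.0056, 0.000775 and 0.0054 and 0 of 6 libraries correlated best with their own number. These correlations run over all tested genes, and whether same-numbered libraries share a batch was not tested. Of the members with a test given in the report, 3 that were not called turned sign. LINC01629 was at -0.08 and LINC01116 at -0.02 after median centring. LINC02970 was at 0.24 with the trend removed, with or without a replicate block, and between -0.12 and 0.06 with single libraries left out (0.06 without OGT replicate 3), and was called lower after median centring (-0.45). The cause of these shifts was not tested. The depth is unknown, so how far counting error limits low members cannot be given.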
